A study of Bos taurus with 15 samples.

Results

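Plasma cells of the cattle intestine were picked out of single-cell libraries of newborn (NB) and adult (AD) Holstein cattle by the load of J chain RNA in each cell barcode. The cells were chosen by measured counts. A barcode was taken as a plasma cell when it had 500 to 4000 detected genes and under 50000 unique molecular identifiers (UMIs, each standing for 1 captured transcript molecule), when JCHAIN made up at least 1% of its UMIs, and when it had at least 1 UMI of MZB1 and 0 UMIs of MS4A1 and CD3E. By these values 1400 of 88439 intestinal barcodes within the gene and UMI limits were plasma cells, 1066 of 40458 among AD barcodes and 334 of 47981 among NB barcodes. JCHAIN and MZB1 are therefore high in these cells by choice, and their levels are given only as a description.

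The atlas covers digestive organs of NB calves and an AD cow, and 10 of its 15 libraries are intestinal. The AD duodenum, jejunum, cecum, and colon came from 1 lactating cow. The NB duodenum, jejunum, ileum, cecum, colon, and rectum came from a set of 3 untreated calves, and the calf behind each NB library was not given. NB tissue went through EDTA and trypsin and then a lamina propria kit, AD duodenum and cecum through the lamina propria kit, and AD jejunum and colon through a multi tissue kit. Stage, animal, and dissociation changed together and cannot be told apart. Within the AD stage, tissue and kit cannot be told apart in a pair of libraries with unlike kits. With 1 library for each tissue of a stage, no difference has a replicate check and no test was made. The 95% intervals given are exact, binomial for shares and Poisson for UMI counts, and cover counting error only.

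Plasma cells are the end stage of the B cell lineage and secrete antibody at a high rate. In the gut wall most of them make IgA, which is joined by the J chain into polymers that the epithelium carries into the lumen. The change from B cell to plasma cell is known to be driven by PRDM1, IRF4, and XBP1, to shut off B cell genes such as PAX5, and to enlarge the endoplasmic reticulum (ER) in which antibody is folded. Recently formed plasma cells, called plasmablasts, still divide and keep part of the B cell program.

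The intestinal libraries held 48674267 to 117505536 UMIs. A doublet caller marked 23 of the 23 plasma cells of NB rectum and 18 of the 107 of NB cecum (16.8%) as possible doublets. In each of the other libraries with plasma cells it marked 0 to 25, or 0 to 4.99% of them. Every value of NB rectum below rests on cells so marked, and with doublets removed it has none. Over the 28 pairs of libraries with plasma cells, 1 plasma cell barcode was shared.

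Plasma cells were most frequent in the AD duodenum and were absent by this rule from the NB duodenum and jejunum. At the AD stage they were 516 of 10380 barcodes in duodenum (4.97%, 95% interval 4.56 to 5.41), 341 of 11082 in jejunum (3.08%, 2.76 to 3.42), 81 of 9651 in cecum (0.839%, 0.667 to 1.04), and 128 of 9345 in colon (1.37%, 1.14 to 1.63). At the NB stage they were 149 of 7566 in ileum (1.97%, 1.67 to 2.31), 107 of 6395 in cecum (1.67%, 1.37 to 2.02), 55 of 4803 in colon (1.15%, 0.864 to 1.49), and 23 of 7628 in rectum (0.302%, 0.191 to 0.452). The AD share thus descended from duodenum to jejunum to colon to cecum with intervals that did not overlap, and the NB shares of ileum and cecum overlapped. NB duodenum had 0 of 8484 and NB jejunum 0 of 13105, so a count of 3 would be a share of 0.0354% and 0.0229%. The highest JCHAIN share of any barcode within the limits there was 0.19% in duodenum and 0.267% in jejunum, both under the 1% asked for. In duodenum and jejunum the NB share was thus below the AD share. In the other tissues sampled at both stages, the NB share was above the AD share in cecum and below it in colon, and the colon intervals overlapped. Both directions turned when cells with MS4A1 or CD3E were kept. Cecum then had 208 of 9651 (2.16%, 1.87 to 2.46) in AD and 124 of 6395 (1.94%, 1.62 to 2.31) in NB, and colon 229 of 9345 (2.45%, 2.15 to 2.78) and 137 of 4803 (2.85%, 2.40 to 3.36). The intervals of the stages overlapped in both tissues, as did those of AD cecum and AD colon, so the order of the stages in cecum and colon rested on that condition. With JCHAIN at 5% or more, cecum had 0.705% (0.548 to 0.892) in AD and 0.907% (0.689 to 1.17) in NB. Colon then had 1.23% (1.02 to 1.48) in AD and 0.396% (0.238 to 0.617) in NB. At that limit the cecum intervals overlapped and the colon ones did not, so the JCHAIN limit mattered as well. T cell barcodes in these libraries numbered 2832 to 7111 at the AD stage and 64 to 880 in the NB libraries with plasma cells, so the share of plasma cells was taken over unlike mixtures of cells.

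**Figure D1:**
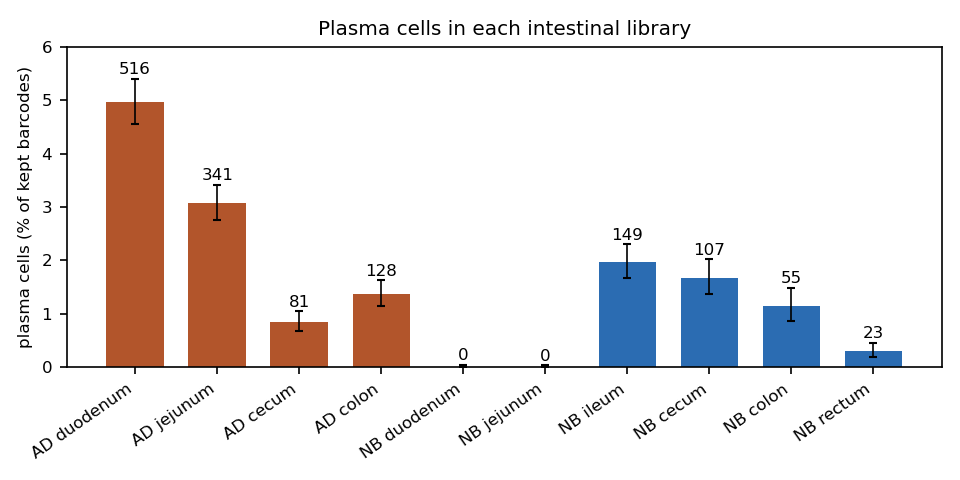
Plasma cells as a percentage of barcodes with 500 to 4000 genes in each intestinal library (bars) with exact binomial 95% intervals (lines). The number of plasma cells is printed above each bar. AD duodenum stands highest at 4.97%, and NB duodenum and NB jejunum are at 0.

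The load of JCHAIN, the value that chose the cells, is given as a description. JCHAIN, whose product links IgA and IgM into polymers, had a median share of 18.7% of a cell's UMIs in AD duodenum, 16.5% in jejunum, 15.6% in cecum, and 14.7% in colon. The NB medians were 5.41% in cecum, 3.58% in colon, 2.45% in ileum, and 2.46% in rectum. The median number of UMIs per cell was 9129 to 11880 in the AD libraries, and among the NB ones 3437 in ileum, 5209 in colon, 12191 in cecum, and 13779 in rectum. The NB plasma cells of cecum and rectum were thus deeper than those of ileum and colon. Near the 1% limit were 18 barcodes just outside it at 0.8 to 1% JCHAIN and 23 just inside at 1 to 1.2%. NB ileum held 12 of those 18 and 13 of those 23. At least 2% JCHAIN was found in 97 of the 149 plasma cells of NB ileum, 92 of 107 of cecum, 43 of 55 of colon, and 16 of 23 of rectum. In AD duodenum, jejunum, cecum, and colon these numbers were 510 of 516, 324 of 341, 77 of 81, and 122 of 128. The limit thus bore more on the NB libraries than on the AD ones, and most on NB ileum. TNFRSF17, which encodes the plasma cell survival receptor BCMA, was detected in 8 of those 18 and in 7 of those 23, against 94.9% of the cells with at least 20% JCHAIN.

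The most abundant transcripts of these cells came from genes that the files list by identifier alone, since no immunoglobulin heavy or light chain gene has a symbol there. ENSBTAG00000047700 took 37.5% of all plasma cell UMIs in AD duodenum, 33.2% in jejunum, 34.6% in cecum, and 35.7% in colon, and 0.0940% to 0.59% in the 4 NB libraries. ENSBTAG00000001219 took 8.74% in NB ileum, 9.91% in NB colon, 9.83% in NB cecum, and 5.64% in NB rectum, and 1.05% to 4.97% in the AD libraries. As shares of all UMIs the stages did not overlap for either gene. JCHAIN was part of these totals, at 16.1% in AD cecum and 2.83% in NB rectum. Outside JCHAIN, AD cecum was no longer below NB rectum, so for ENSBTAG00000001219 the separation rested on the scale. A cell was called led by ENSBTAG00000047700 or ENSBTAG00000001219 when that gene had over 2 times the UMIs of the other. In AD duodenum 467 cells were led by ENSBTAG00000047700 and 49 by ENSBTAG00000001219, and these numbers were 318 and 17 for AD jejunum, 60 and 20 for AD cecum, and 112 and 15 for AD colon. In NB ileum 1 cell was led by the first and 148 by the second, in NB cecum 2 and 102, in NB colon 3 and 51, and in NB rectum 0 and 23. The AD cecum had the highest AD share led by the second gene. In AD T cell barcodes the first gene was 0.0214% to 0.127% of UMIs.

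**Figure D2:**
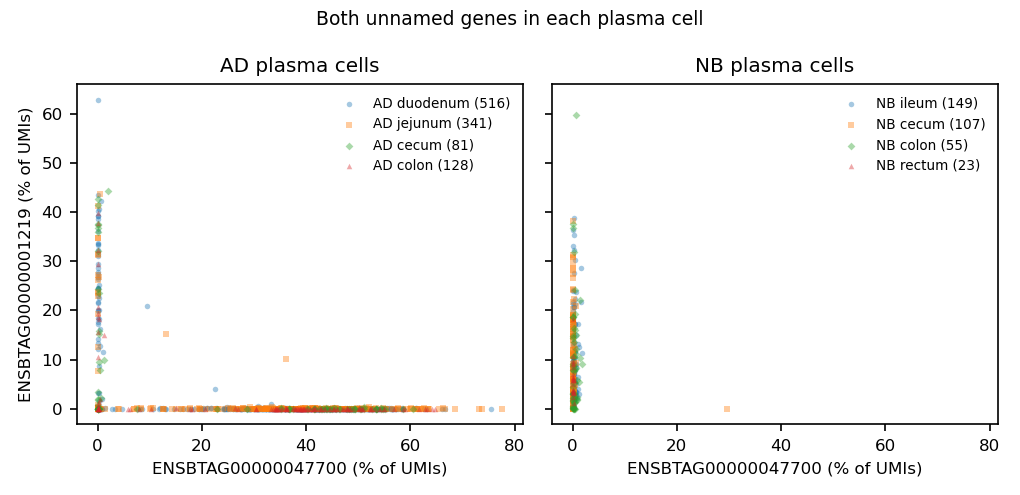
Each point is 1 plasma cell, with the percentage of its UMIs from ENSBTAG00000047700 (x axis) and ENSBTAG00000001219 (y axis), for the 4 AD libraries (left) and the 4 NB libraries (right); the number of cells is in the key. Nearly all cells lie along an axis, most AD cells along the x axis and most NB cells along the y axis.

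Of the plasma cell markers that the choice did not use, TNFRSF17, DERL3, PRDM1, and IRF4 were found in all 8 libraries, XBP1 was low, and SDC1 was at or near 0 in the NB ones. Levels are given below as CPM, the count of a gene in 1000000 UMIs outside JCHAIN, summed over the plasma cells of a library, in the order AD duodenum, jejunum, cecum, and colon, then NB ileum, cecum, colon, and rectum. ENSBTAG00000047700 is part of this total and was higher at the AD stage, so the order of AD and NB levels can change on a second scale, CPM over the UMIs of genes that have a symbol other than JCHAIN (symbol scaling). The second value is given for several genes below. TNFRSF17 was 633, 528, 623, and 558 CPM in the AD libraries and 516, 378, 501, and 178 CPM in the NB libraries, and no higher than 3.77 CPM in T cell barcodes or 2.97 CPM in B cell barcodes of the same libraries. With symbol scaling TNFRSF17 was 1057 to 1400 in the AD libraries and 204 to 668 in the NB ones, which do not overlap. On that scale it was called lower in NB cecum than in AD cecum. DERL3, a part of the ER degradation machinery, was 769, 715, 813, and 809.8 CPM and then 1484, 632, 935, and 334 CPM. With symbol scaling DERL3 was 1430.3 to 1814 in the AD libraries, a range that held NB ileum at 1798, whereas NB cecum, colon, and rectum were below it at 775, 1248, and 383. PRDM1, the repressor that directs plasma cell differentiation, was 254, 211, 223, and 263 CPM and then 295, 211, 222, and 184 CPM. The stages overlapped for PRDM1 on this scale, but not with symbol scaling, where it was 422 to 561 in AD and 211 to 357 in NB libraries. IRF4, the factor that acts beside PRDM1, was 296, 196, 214, and 374 CPM and then 165, 232, 124, and 193 CPM, with stages that overlapped on this scale but not with symbol scaling (392 to 761 and 165 to 284). XBP1, the regulator of the secretory program, was low in every library at 22.2 to 60.1 CPM. By cell, TNFRSF17 was detected in 477 of 516 plasma cells of AD duodenum, 312 of 341 of jejunum, 77 of 81 of cecum, and 120 of 128 of colon. In NB ileum, cecum, colon, and rectum it was in 102 of 149, 89 of 107, 43 of 55, and 14 of 23. These shares were not thinned, and the part of depth in them was not tested. Relative to all other barcodes of the same library, the genes with a symbol that were highest in the plasma cells of all 8 libraries were, apart from MZB1 of the rule, TNFRSF17 (smallest log2 ratio 3.51), CCR10 (3.09), DERL3 (3.05), MGAT4A (2.85), TNFRSF13B (2.56), DNAJB9 (2.29), SEC11C (2.16), DNAJC3 (2.11), and FKBP2 (2.00). ELL2, an elongation factor used in antibody secretion, followed at 1.97. These ratios describe the chosen cells and are no test.

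The label held least well for SDC1, which encodes the surface marker CD138. SDC1 was 47.4, 43.2, 53.4, and 63.2 CPM in the AD libraries and 0, 8.45, 3.17, and 3.06 CPM in NB ileum, cecum, colon, and rectum. The highest upper bound at the NB stage, 17.7 CPM in colon, lay below the lowest AD bound of 35.9 CPM in jejunum. SLAMF7, another surface receptor of plasma cells, was 415, 289.5, 387, and 509.6 CPM and then 18.5, 193, 108, and 125 CPM. The stages did not overlap for SLAMF7 either, and NB ileum was the lowest of all. The place of CD27, a receptor of the TNF family, depended on the scale. CD27 ranged from 284 to 424 CPM in AD libraries and from 165 to 306 CPM in NB libraries, which overlap, and with symbol scaling from 632 to 848 and from 189.8 to 375, which do not. TNFRSF13B, the receptor TACI, ranged from 83 to 95 CPM and from 79.8 to 196 CPM, and with symbol scaling from 169 to 210.1 and from 96.6 to 240.2.

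**Figure D3:**
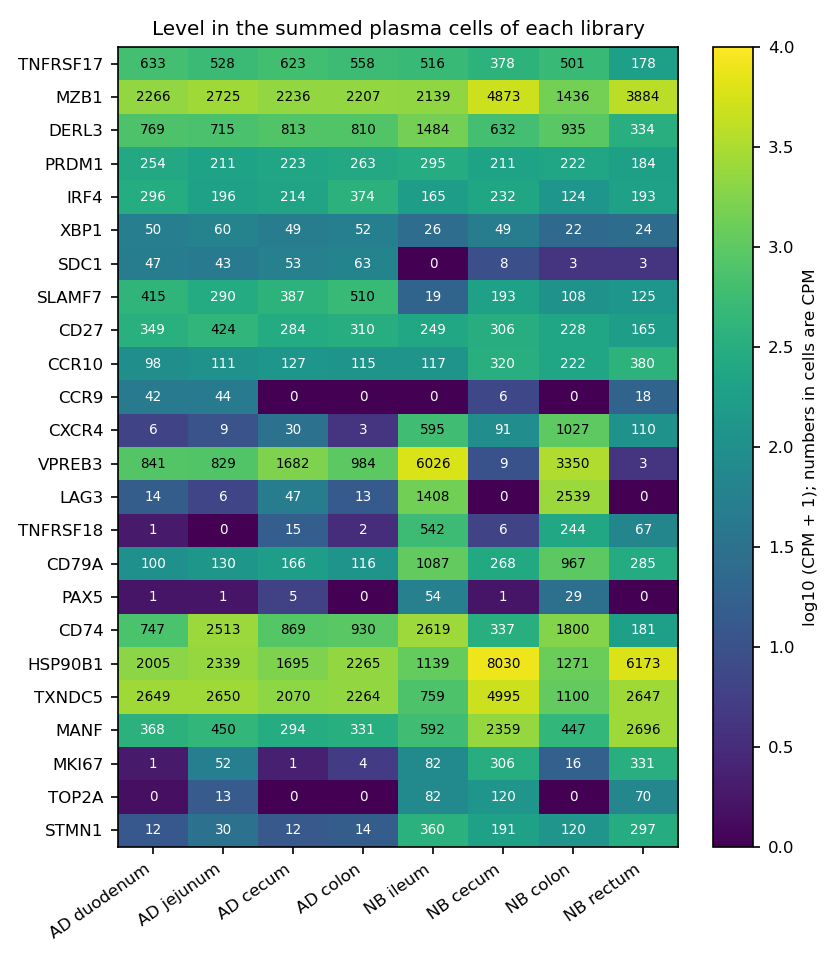
Level of plasma cell, surface, B cell, ER, and proliferation genes (y axis) in the summed plasma cells of each library (x axis); the number in a cell is CPM of UMIs outside JCHAIN, and the color is log10 of CPM + 1. TNFRSF17 is at 178 CPM or above in all 8 libraries, SDC1 is at 43.2 CPM or above in the AD libraries and at 8.45 CPM or below in the NB ones, and LAG3 is above 1000 CPM in NB ileum and NB colon.

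Gut homing receptors differed between tissues. CCR9, the receptor for the small intestinal chemokine CCL25, was 42 CPM (36.1 to 48.6) in AD duodenum and 43.6 CPM (36.2 to 51.9) in AD jejunum, and had 0 UMIs in AD cecum and AD colon. Against a count of 3 UMIs, CCR9 was at least 11.5-fold higher in AD duodenum than in AD cecum and at least 17.7-fold higher than in AD colon, and for AD jejunum these bounds were 12.0 and 18.4. The T cell barcodes of the same libraries had 338, 113, 25, and 9.5 CPM of CCR9, and the part of free RNA in the plasma cell values was not tested. CCR9 was 0 in NB ileum, the small intestinal tissue of the NB set with plasma cells, where the upper bound was 6.84 CPM. CCR10, the receptor for the mucosal chemokine CCL28, was present everywhere, at 98, 111, 127, and 115 CPM and then 117, 319.9, 222, and 379.5 CPM, and no higher than 3.77 CPM in T cell barcodes. With symbol scaling CCR10 was 217 to 284 in the AD libraries and 142, 392, 296, and 436 in NB ileum, cecum, colon, and rectum. NB cecum was above all 4 AD libraries on either scale, as was NB rectum with its possible doublets, and NB colon by a smaller margin. The place of NB ileum depended on the scale. CCR10 was not called between the stages in cecum or colon with symbol scaling.

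Over all genes, the adult plasma cells of small and large intestine were close. A gene was called when it was at least 2-fold apart, with a pseudocount of 5 CPM, in every pair of a small and a large intestinal library and its intervals did not overlap. Of 3448 genes, 9 were higher in the small intestine (0.261%) and 3 lower (0.087%), and CCR9 was the gene among these that belonged to a list. On the scale of genes with a symbol 14 were higher (0.245%) and 9 lower (0.158%). Without AD jejunum the first counts were 22 and 13. Leaving AD jejunum out was chosen after seeing its macrophage RNA, given below. Without a library a gene has to be called in fewer pairs, so the counts can only stay or rise. At the NB stage, ileum against cecum, colon, and rectum gave 57 genes higher (1.02% of 5612) and 18 lower (0.321%). On the scale of genes with a symbol these were 0.72% and 0.392%, and without NB rectum, again with fewer pairs, 30 were lower on the first scale. The NB counts asked for a call in 3 pairs and the AD counts in 4, so they are not alike. RGS13, a regulator of chemokine receptor signaling, was 325 CPM in NB ileum and 0, 28.5, and 0 CPM in NB cecum, colon, and rectum. B cell barcodes had 286 CPM of RGS13 in NB ileum, where they numbered 2834, and 180 CPM in NB colon, and the part of B cell RNA in the plasma cell value was not tested. CELF4 was 89 CPM against 0, 12.7, and 0 CPM, and FBXO15 51.9 CPM against 0.705, 3.17, and 3.06 CPM. GNLY, which encodes the lytic protein granulysin, was 13 CPM in NB ileum and 526, 389.9, and 398 CPM in the other NB libraries. NUCB2 was 29.7 CPM in NB ileum and 385, 91.9, and 187 CPM in the others. CXCL14, a chemokine, was also called higher in NB ileum at 174 CPM, but the call was lost when doublets were removed or when cells with markers of other cell types were left out.

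Some pairs of newborn libraries had many more called genes than any pair of adult ones. Between any pair of AD libraries, 3.09% to 6.72% of genes were called, in either direction. Between NB ileum and NB colon 213 of 5002 genes were called (4.26%), and between NB cecum and NB rectum 223 of 4433 (5.03%). The other NB pairs gave 25.0% (ileum and cecum), 23.9% (cecum and colon), 21.7% (ileum and rectum), and 20.4% (colon and rectum), the values with rectum resting on possible doublets. The median depth per cell differed along with these pairs, as given above, and its part in them was not tested. All AD libraries came from the same cow, whereas a pair of NB libraries may join different calves. Calf and tissue cannot be told apart in these pairs or in any other difference between NB tissues.

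**Figure D4:**
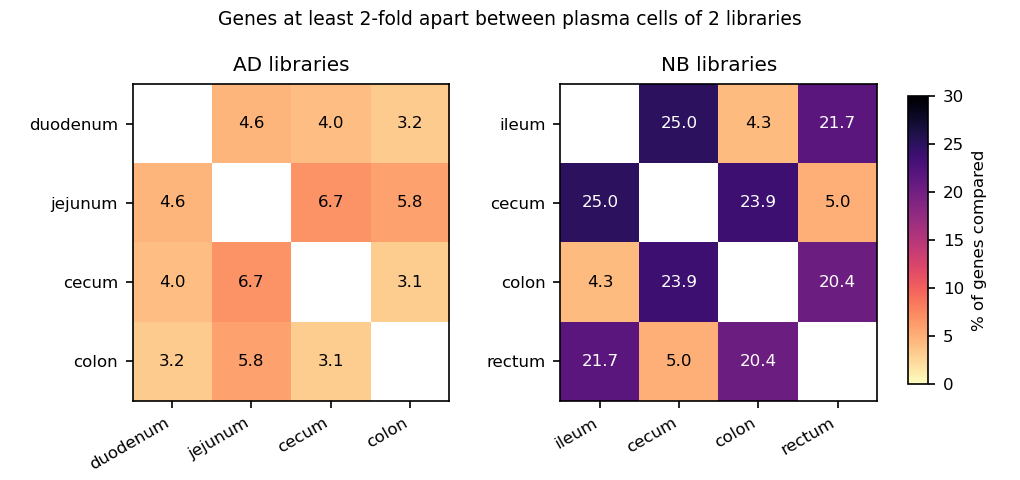
Percentage of genes called, at least 2-fold apart with intervals that did not overlap, for each pair of libraries (axes) within the AD stage (left) and within the NB stage (right); color and number give the same value. The AD pairs lie between 3.09% and 6.72%, as do ileum with colon and cecum with rectum, while the other NB pairs lie between 20.4% and 25.0%.

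ER folding genes were highest in NB cecum and rectum, the latter resting on cells marked as possible doublets. Their list, 24 chaperones and folding enzymes, summed to 13714, 15280, 12060, and 14042 CPM in the AD libraries and to 14767, 40731, 13117, and 36419 CPM in NB ileum, cecum, colon, and rectum. With symbol scaling the AD libraries ranged from 26891 to 30564. NB ileum at 17892 and NB colon at 17504.5 were then below that range, and NB cecum at 49957 and NB rectum at 41820 above it. In T cell barcodes the same list summed to 3754 to 5927 CPM. HSP90B1, the ER chaperone GRP94, was 2005, 2339, 1695, and 2265 CPM and then 1139, 8030.4, 1271, and 6173 CPM. MANF, a secreted factor of the ER stress response, was 368, 450.1, 294, and 331 CPM and then 592, 2359, 447, and 2696 CPM, and with symbol scaling NB ileum at 717 was within the AD range of 655 to 900.3. PDIA4, a disulfide isomerase, was 455, 622, 403, and 529 CPM and then 456, 2255, 368, and 2032 CPM. Each of these 3 genes was higher in NB cecum and NB rectum than in the other 6 libraries, with intervals that did not overlap. Of the 24 listed genes, 13 were lower in NB ileum than in NB cecum (9.1% of all genes) and 1 was higher (15.9%). Ileum against rectum gave 13 lower (10.6%) and 0 higher (11.1%), and colon against rectum also gave 13 lower (12%) and 0 higher (8.35%). Cecum against colon gave 14 higher (11.1%) and 1 lower (12.8%). No listed gene was called between ileum and colon (2.24% of all genes higher and 2.02% lower) or between cecum and rectum (1.8% and 3.23%).

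B cell genes were higher in NB ileum and NB colon than in NB cecum and NB rectum. The list of B cell genes summed to 1037, 2935, 1355, and 1299.6 CPM in the AD libraries and to 5568, 1148, 4007, and 1016 CPM in the NB ones. With symbol scaling, AD jejunum stood at 5872, between NB ileum at 6747 and NB colon at 5347. CD79A, a signaling chain of the B cell receptor, was 99.7, 130.4, 166, and 116 CPM and then 1087, 268, 967, and 285 CPM. With symbol scaling NB cecum and rectum, at 329 and 327 of CD79A, were within the AD range of 220.4 to 371, and NB ileum and colon were above it. PAX5, the factor that keeps B cell identity, was 53.8 CPM (36 to 77.3) in NB ileum and 28.5 CPM (13 to 54.2) in NB colon, and 0 to 4.86 CPM in the other 6 libraries. In B cell barcodes of NB ileum PAX5 was 49.4 CPM, within the interval of the plasma cells there. The whole B cell list summed to 5568 CPM in NB ileum plasma cells and 5777 CPM in B cell barcodes, and the class II list to 4991 CPM and 3653 CPM. B cell barcodes were chosen in part by CD79B, a gene of the B cell list. In NB ileum the cells taken by the rule thus carried B cell genes at about the level of B cell barcodes, beside their plasma cell genes, which limits the name given to them. These plasma cells had 0 UMIs of the B cell gene MS4A1 by rule, and dropping that rule and the one on CD3E raised the count of NB ileum from 149 to 383 cells. NB ileum held 2834 B cell barcodes and NB colon 686, against 4 in cecum and 8 in rectum, and the part of B cell RNA in these values was not tested. CD74, the invariant chain of MHC class II, was 747, 2513, 869, and 929.8 CPM and then 2619, 337, 1800.5, and 181 CPM. It is on the B cell list and on the class II list, so these lists are not separate. CD74 made up 2513 of the 2935 CPM of the B cell list in AD jejunum, 2619 of 5568 in NB ileum, and 1800.5 of 4007 in NB colon. The place of AD jejunum between NB ileum and NB colon with symbol scaling thus rested on CD74. Of the B cell list, 13 of 15 genes were higher in NB ileum than in NB cecum and 0 lower, and of the class II list 6 of 6 were higher, beside 15.9% of all genes higher and 9.1% lower. On the scale of genes with a symbol the class II list summed to 7976 in AD jejunum and 6048 in NB ileum.

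VPREB3 and LAG3 were abundant in NB ileum and NB colon and at or near 0 in NB cecum and NB rectum. Both were picked out after their values were seen, as was TNFRSF18. VPREB3, a protein of the pre-B cell receptor pathway, was 841, 829, 1682, and 984 CPM in the AD libraries and 6026, 9.16, 3350.5, and 3.06 CPM in NB ileum, cecum, colon, and rectum. It was 1202 CPM in B cell barcodes of NB ileum and 898 CPM in those of NB colon, lower than in the plasma cells. LAG3, an inhibitory receptor best known from T cells, was 14.2, 5.97, 47.4, and 12.6 CPM at the AD stage. In NB ileum it was 1408 CPM (1309 to 1512) and in NB colon 2539 CPM (2366 to 2721), and in NB cecum and rectum 0 UMIs were counted, with upper bounds of 2.6 and 11.3 CPM. In B cell barcodes LAG3 was 1.07 CPM in NB ileum and 0.618 CPM in NB colon, and in T cell barcodes 136 and 30.2 CPM. The plasma cell values of ileum and colon were therefore above those of both other cell classes in the same libraries. With every cell thinned to 1000 UMIs, LAG3 was detected in 54.4% of the NB ileum plasma cells (46.0 to 62.5) and 67.3% of those of NB colon (53.3 to 79.3), against 14.5% and 1.96% of T cell barcodes. Without thinning the shares were 75.2% and 81.8%. It was in 0 of 107 cells of NB cecum and 0 of 23 of NB rectum, where 3 cells would be 2.80% and 13.0%. VPREB3 was in 145 of all 149 plasma cells of NB ileum and 51 of 55 of NB colon, with or without LAG3. TNFRSF17 was in 83 of the 112 NB ileum cells with LAG3 (74.1%) and in 51.4% of the rest of the 149. In NB colon it was in 38 of the 45 cells with LAG3 (84.4%) and in 50% of the few others among the 55. These shares were not thinned, and the part of depth in them was not tested. TNFRSF18, the receptor GITR, was 542 CPM in NB ileum and 244 CPM in NB colon, with 5.64 CPM in cecum and 67.3 CPM in rectum, and 0 to 14.6 CPM at the AD stage.

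Proliferation genes were higher in sum in NB ileum, cecum, and rectum than in any adult library, on either scale. The list of 22 genes summed to 204, 540.4, 200.3, and 213 CPM in the AD libraries and to 2120, 3374, 767, and 4166 CPM in the NB ones. On the scale of genes with a symbol, AD jejunum stood at 1081 and NB colon at 1024, so the place of NB colon depended on the scale. MKI67, which marks cycling cells, was 0.929, 52, 1.21, and 3.95 CPM and then 81.6, 306, 15.8, and 331 CPM. AD jejunum was the highest AD library for MKI67, and NB colon, with 5 UMIs, was below it. With symbol scaling AD jejunum had 104 and NB ileum 98.9. The UMIs of AD jejunum lay in 24 of its 341 plasma cells, and 1 of these cells alone held 24 UMIs. In AD duodenum, cecum, and colon MKI67 was in 4 of 516, 1 of 81, and 4 of 128 cells, all without thinning. After thinning to 1000 UMIs, MKI67 was found in 23.4% of plasma cells of NB cecum and 26.1% of NB rectum, and in 3.36% and 1.82% of those of NB ileum and colon. T cell barcodes thinned in the same way gave 13.2%, 15.5%, 1.61%, and 6.10% in these libraries, so NB ileum was above its T cell level by less than the counting intervals and NB colon was below its own. Unthinned, the plasma cell shares were 61.7%, 73.9%, 10.7%, and 5.45%. In B cell barcodes the list summed to 15317 CPM in NB ileum and 13035 CPM in NB colon, above the plasma cells there, and the part of B cell RNA in the plasma cell values was not tested. Of the 22 genes, 20 were higher in NB cecum than in NB colon and 0 lower, beside 11.1% and 12.8% of all genes. In NB colon against NB rectum, whose cells were all marked as possible doublets, 22 were lower, beside 12% of all genes.

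**Figure D5:**
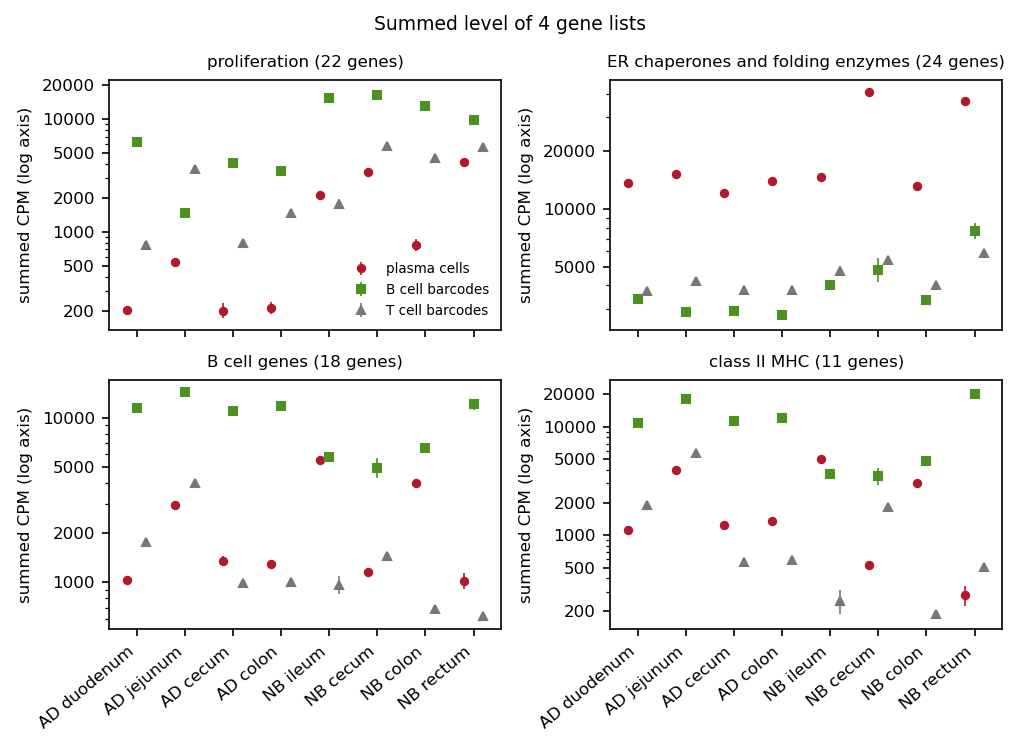
Summed level of 4 gene lists (y axis, CPM of UMIs outside JCHAIN, log axis) in plasma cells, B cell barcodes, and T cell barcodes of each library (x axis), with exact Poisson 95% intervals as bars. ER chaperones peak in NB cecum (40731 CPM) and rectum, B cell and class II genes are higher in NB ileum and colon than in NB cecum and rectum, and proliferation genes in NB ileum, cecum, and rectum are above all AD libraries. The place of NB colon above AD jejunum for proliferation and B cell genes, and of NB ileum above AD jejunum for class II genes, reverses on the scale of genes with a symbol. CD74 is on the B cell and class II lists and made up most of the B cell sum of AD jejunum. For ER chaperones, NB ileum and NB colon are below all AD libraries on that scale.

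Cecum and colon were the tissues with plasma cells at both stages. ENSBTAG00000047700 took at least 33.2% of AD plasma cell UMIs, and the counts depended on whether it was part of the total. On the CPM scale, 1760 of 4100 genes were higher at the NB stage in cecum (42.9%) and 106 lower (2.59%), with a median log2 ratio of 0.89 over all genes. In colon 1259 of 4363 were higher (28.9%) and 98 lower (2.25%), with a median of 0.79. When CPM was taken over the UMIs of genes that have a symbol other than JCHAIN, cecum gave 647 of 5260 higher (12.3%) and 562 lower (10.7%), with a median of -0.02, and colon 615 of 5769 higher (10.7%) and 256 lower (4.44%), with a median of 0.19. The share of called genes that were higher moved from 94.3% to 53.5% in cecum and from 92.8% to 70.6% in colon. Below, counts and log2 ratios are on the scale of genes with a symbol unless the other is named, and levels are in CPM.

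The list counts in this paragraph stand beside 12.3% of all genes higher and 10.7% lower in cecum, and 10.7% higher and 4.44% lower in colon. The proliferation list had 22 of its 22 genes higher at the NB stage in cecum, with a median log2 ratio of 3.51, and in T cell barcodes the median was 2.86. In colon 3 of 10 tested genes were higher (MCM6, STMN1, and TUBA1B) and 0 lower. The median there was 1.00, and in T cell barcodes it was 1.67. STMN1, a regulator of microtubules in dividing cells, had a log2 ratio of 2.90 in cecum and 2.29 in colon, and 3.51 and 2.71 per UMIs outside JCHAIN. Of the ER chaperones, 9 of 24 were higher in cecum and 2 lower, whereas in colon 0 were higher and 5 lower. Of the ER translocation genes 4 of 17 were higher and 1 lower in cecum, and 0 of 17 were called in colon. N-glycosylation and transport genes gave 4 of 19 higher and 0 lower in cecum and 0 higher and 4 lower in colon, and ER-associated degradation genes 2 of 15 higher and 3 lower in each tissue, so the share of degradation genes called higher was near that of all genes. Per UMIs outside JCHAIN, cecum gave 16 of 23 chaperones, 11 of 17 translocation genes, 12 of 19 glycosylation genes, and 6 of 15 degradation genes higher, beside 42.9% of all genes, and 2 degradation genes lower, beside 2.59%. HSP90B1 was called in opposite directions on this scale, with log2 ratios of 1.38 in cecum and -1.44 in colon, and 2.24 and -0.83 per UMIs outside JCHAIN, where the colon value was not called. The plasma cell and B cell transcription factors were mostly not called. In cecum 0 of 6 were higher and 1 lower, and in colon PAX5 and IKZF3 were higher and XBP1 and IRF4 lower, of 9. B cell genes were higher for 7 of 14 in colon and lower for 0. In cecum their balance depended on the scale, with 1 of 11 higher and 4 lower here and 4 of 10 higher and 1 lower per UMIs outside JCHAIN. The second counts stand beside 42.9% and 2.59% of all genes, so the share called higher was near that of all genes. Class II genes were lower for 3 of 4 in cecum and higher for 3 of 6 in colon. Homing genes were higher for 6 of 11 in colon and for 2 of 10 in cecum, ITGB7 and CCR7. CXCR4, the receptor for the stromal chemokine CXCL12, was 30.4 CPM in AD cecum and 90.9 CPM in NB cecum, and 3.16 CPM in AD colon and 1027 CPM in NB colon. It was called higher in colon on both scales, but in cecum only per UMIs outside JCHAIN (log2 ratio 1.44, and 0.68 with symbol scaling). In T cell barcodes the log2 ratio of CXCR4 was 3.90 in cecum and 3.56 in colon.

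A call in the same direction in cecum and colon was found for 112 of 6300 genes higher (1.78%) and 93 lower (1.48%) on the scale of genes with a symbol, and for 498 (10%) and 24 (0.482%) of 4975 per UMIs outside JCHAIN. RASGEF1B, an exchange factor for Ras-like proteins, was 8.5 and 10.3 CPM in AD cecum and colon and 112 and 111 CPM in NB cecum and colon. Its log2 ratio was 2.57 and 2.56 with symbol scaling and 3.12 and 2.92 without it, against -0.25 and -1.11 in T cell barcodes. B cell barcodes moved the same way as plasma cells. RASGEF1B was 13.6 and 7.32 CPM in those of AD cecum and colon and 77.5 and 88.7 CPM in those of NB cecum and colon. NB cecum had 4 B cell barcodes. IL2RG, the common cytokine receptor chain, was 34 and 41.1 CPM and then 183 and 485 CPM, with log2 ratios of 1.51 and 2.88, and 2.27 and 3.41 without symbol scaling. CD52, a lymphocyte surface glycoprotein, was 129 and 52.9 CPM and then 520.0 and 830.5 CPM. GNLY was 99.6 and 98 CPM and then 526 and 389.9 CPM, while in T cell barcodes it was lower at the NB stage, with log2 ratios of -3.39 and -6.46. GADD45A and the heat shock cofactor DNAJB1 were also higher in both tissues, and their T cell barcodes moved the same way, with log2 ratios of 2.68 and 2.71 for GADD45A and 2.44 and 1.95 for DNAJB1. ATP6V1G1, RNF126, and 2 genes without a symbol were the rest of the 10 named genes that were higher.

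On the lower side, PARM1, a mucin-like membrane protein, was 102 and 102 CPM in AD cecum and colon and 2.11 and 9.51 CPM in NB cecum and colon. SDC1 fell by 3.01 and 3.86 on the log2 scale with symbol scaling, and by 2.12 and 3.06 per UMIs outside JCHAIN. FNDC3B was 287 and 334 CPM and then 100.0 and 34.9 CPM, and CITED2, a transcriptional coregulator, 219.8 and 334 CPM and then 88.8 and 88.8 CPM. NT5DC2 was 61.9 and 74.3 CPM and then 22.5 and 3.17 CPM. NUPR1, a stress-induced nuclear protein, was 253 and 349 CPM and then 31 and 171 CPM, and its call was lost in colon when CPM was taken over all UMIs and when cells with 10% or more mitochondrial UMIs were left out. These 6 genes were also lower in NB ileum and NB rectum than in AD duodenum and AD jejunum by level, for example 26 and 33.7 CPM of FNDC3B against 365 and 286 CPM. Among survival and surface receptors, 1 of 11 was higher and 5 lower in cecum (beside 12.3% and 10.7% of all genes) and 3 of 13 higher and 4 lower in colon (10.7% and 4.44%). Per UMIs outside JCHAIN cecum gave 2 of 10 higher and 1 lower, beside 42.9% and 2.59% of all genes. SLAMF7 and SDC1 were the members of this list called lower in both tissues on the scale of genes with a symbol.

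Among the AD libraries, lists of stress, class II, and interferon genes differed between libraries. AD duodenum and cecum went through the lamina propria kit, and AD jejunum and colon through the multi tissue kit. Tissue and kit cannot be told apart in the pairs below, except jejunum with colon and duodenum with cecum, which shared a kit. Immediate early and heat shock genes were lower in AD duodenum than in AD colon for 16 of 18 listed genes (1.99% of all genes) and lower in AD jejunum than in AD colon for 15 of 18 (1.5%). For AD cecum against AD colon the number was 8 of 18 (2.2%). JUN, a transcription factor of the immediate early response, was 1109, 547, 1827, and 3690.1 CPM in AD duodenum, jejunum, cecum, and colon. Class II genes were lower for 4 of 4 in AD duodenum than in AD jejunum (4.43%) and higher for 4 of 4 in AD jejunum than in AD cecum (5.7%). Interferon-stimulated genes were lower for 4 of 4 in AD duodenum than in AD jejunum and 0 were higher (0.218%). ISG15, a ubiquitin-like interferon product, was 8.36 CPM in AD duodenum and 128 CPM in AD jejunum. The macrophage markers given below were also higher in AD jejunum, for 9 of 9 tested against duodenum, and their part in these values was not tested. Between AD duodenum and AD cecum 3 of 8 B cell genes were lower in duodenum (1.57%).

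Stress and interferon genes varied between the libraries of a stage as well as between stages. Immediate early and heat shock genes, known as rapid responders to stress, summed to 5488, 3953, 7808, and 15152 CPM in AD plasma cells and to 24366, 36651, 20455, and 26646 CPM in NB ones. T cell barcodes of the same libraries summed to 7718 to 18291 CPM for AD tissue and to 24118 to 40166 CPM for NB tissue. With symbol scaling AD colon stood at 30853, above NB ileum at 29523, NB colon at 27297, and NB rectum at 30598. With symbol scaling 12 of 19 of these genes were higher at the NB stage in cecum (beside 12.3% of all genes) and 6 of 19 in colon (10.7%), and per UMIs outside JCHAIN 15 of 19 (42.9%) and 8 of 19 (28.9%). With symbol scaling 1 gene was lower in each tissue, IER2 in cecum (beside 10.7% of all genes) and FOSB in colon (4.44%). Per UMIs outside JCHAIN 0 were lower in cecum (2.59%) and FOSB was lower in colon (2.25%). Interferon-stimulated genes were higher for 4 of 7 in cecum (beside 12.3% of all genes), and for 2 of 5 in colon (10.7%) with 3 lower (4.44%). Opposite directions were found for IFI6 and ISG20. IFI6 was 34 CPM in AD cecum and 452 CPM in NB cecum, but 60 CPM in AD colon and 19 CPM in NB colon, and ISG20 was 41.3 and 162 CPM in cecum and 68.7 and 6.34 CPM in colon. T cell barcodes followed the same directions for IFI6, with log2 ratios of 0.97 and -1.78.

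Within the adult tissue, the cells led by ENSBTAG00000001219 were set beside those led by ENSBTAG00000047700. In AD duodenum and AD cecum, which had at least 20 cells of each kind, 11 of 6025 genes were higher in these cells in both tissues (0.183%) and 3 lower (0.0498%), on the scale of genes with a symbol. LAG3 was first among them, at 302 against 7.82 CPM in duodenum and 462 against 7.01 CPM in cecum. The UMIs were held by few cells, 47 UMIs in 5 of 49 cells in duodenum and 37 UMIs in 6 of 20 cells in cecum. In AD colon 16 UMIs of LAG3 lay in 1 of 15 such cells and 0 in the 112 others, and in AD jejunum there was 1 UMI in 17 such cells and 16 in 318. CXCR4 and CD79B were also higher in these cells, CXCR4 at 45.0 against 9.49 CPM in duodenum and 199.9 against 31.5 CPM in cecum. Among the rest at 50 CPM or more in both tissues, CSF1, PMEPA1, and RUNX1T1 had the largest ratios, with log2 values of at least 3.17, 2.76, and 2.66. All rested on few UMIs. The cells led by ENSBTAG00000001219 in duodenum and cecum held 14 and 6 of CSF1, 9 and 8 of PMEPA1, and 15 and 11 of RUNX1T1. For CXCR4 the numbers were 7 and 16. The 3 lower genes were C1QA, C1QB, and C1QC, complement genes of macrophages. The cells led by ENSBTAG00000001219 were shallower, with a median of 6800 against 10180 UMIs in duodenum and 7448 against 12606.5 in cecum, and the part of depth was not tested. Their JCHAIN load had a median of 22.3% against 18.5% in duodenum and 16.5% against 15.5% in cecum.

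Markers of other cell types were low in the plasma cells but not zero. The 16 T and NK cell markers summed to 69.5 to 305 CPM in AD and 47.9 to 105 CPM in NB libraries, and the 13 epithelial markers to 14.6 to 61.1 CPM and 48.2 to 199.7 CPM. The 12 macrophage markers summed to 128 to 273 CPM in 3 AD libraries and 79.8 to 297 CPM in NB ones, but to 1872 CPM in AD jejunum, led by C1QA at 788 CPM. T cell barcodes of AD jejunum had 822 CPM of C1QA. Class II and CD74 values of AD jejunum moved with this, and its part in them was not tested. The 10 stromal markers summed to 0.697 to 4.74 CPM in AD libraries and to 319, 354, 19, and 104 CPM in NB ileum, cecum, colon, and rectum, led by COL3A1. The sums of the endothelial, mast cell, and red cell markers were at most 27.5, 19, and 9.9 CPM in any library. In NB cecum 7 of 7 tested stromal markers were called higher than in AD cecum with symbol scaling, beside 12.3% of all genes, and their part in the other values was not tested. CD3D and CD3G, which encode chains of the T cell receptor complex, were at most 8.5 and 1.85 CPM in any library.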

How the data were processed

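Single-cell RNA was measured with a 3' droplet kit. Per the labels and the study's methods, the authors aligned reads with Cell Ranger 3.1.0 to ARS-UCD1.2 and deposited raw UMI counts per gene and barcode. The annotation release was not given in the sources used here, and 7540 of 27270 genes have no symbol. Each library was filtered to 500 to 4000 genes and under 50000 UMIs, and plasma cells were chosen as stated above. The members and the 19 gene lists (281 of 286 genes found) were chosen with earlier results of these data known. Counts were summed over the plasma cells of each library with at least 20 of them, and scaled to CPM over UMIs outside JCHAIN. Genes at 20 CPM or more in a compared sum were compared as log2(CPM + 5). A gene was called at a 2-fold ratio with exact Poisson 95% intervals apart. With 1 library per tissue and stage no model was fitted. Named genes were the listed genes and those called, at 50 CPM or more in every library of the higher side and no lower there than in other barcodes, by their smallest ratio over the pairs. These were the first 10 in each direction for NB against AD, 5 for small against large intestine, and 15 for plasma cells against other barcodes.

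T cell barcodes had CD3E and CD3D and no MS4A1, B cell barcodes MS4A1 and CD79B and no CD3E, and both under 0.1% JCHAIN. The planned split by antibody isotype could not be made, because heavy and light chain genes have no symbol, and cells were split by the leading gene without one. The scale of genes with a symbol and this split were chosen after seeing the data. Cells were thinned to 1000 UMIs for shares of cells. Doublets were called with Scrublet in scanpy 1.11.5 at 0.8% per 1000 barcodes. They were kept. TMM factors came from edgeR 4.0.16, used for scaling alone. Python 3.11.15, numpy 2.4.6, pandas 2.3.3, scipy 1.17.1, and R 4.3.3 were used. The call rule was tried on Poisson counts simulated from the AD cecum and AD colon sums. These held no shift like that of ENSBTAG00000047700 and no spread between cells or animals, so the trial covers counting error only.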

Additional observations from a re-analysis of the deposited data

Results flagged for a closer look

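The change from AD to NB went in opposite directions in cecum and colon for a few results, and these differences were not tested, since each tissue and stage had 1 library. The share of plasma cells was 0.834 percentage points higher at the NB stage in cecum and fell by 0.225 percentage points in colon, where the intervals overlapped. Both directions turned without the condition on MS4A1 and CD3E, with 2.16% in AD and 1.94% in NB cecum and 2.45% in AD and 2.85% in NB colon. With JCHAIN at 5% or more the directions held, but the cecum intervals overlapped and the colon ones did not. UBE2J1, a ubiquitin-conjugating enzyme of ER-associated degradation, had an NB over AD log2 ratio of 2.15 in cecum and -1.22 in colon per UMIs outside JCHAIN, and 1.35 and -1.83 with symbol scaling. ISG20, an interferon-induced exonuclease, had 1.85 and -2.70 on the first scale and 1.07 and -3.43 on the second. IFI6, an interferon-induced membrane protein, had 3.55 and -1.44, and 2.79 and -2.07.

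Outside the intestine, the NB liver library held 35 barcodes that met the same rule, of 12734. Of these, 33 were led by ENSBTAG00000001219 and 2 by ENSBTAG00000047700. MKI67 stood at 526 CPM there, HSP90B1 at 6839 CPM, LAG3 at 136 CPM, and VPREB3 at 46.1 CPM. The NB salivary gland held 3 such barcodes and the NB abomasum 2.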

How the results depend on the processing

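No paired analysis was possible because each tissue and stage had 1 library and the labels number no replicates. Of the alternatives for counts and shares, 178 left the value within its limit and 47 moved it, and for single genes 250 kept their call, 4 lost it, and 0 changed direction. The 4 lost calls were those of NUPR1 and CXCL14.

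Without the condition on MS4A1 and CD3E, plasma cells numbered 865, 517, 208, and 229 in AD duodenum, jejunum, cecum, and colon, 383 in NB ileum, 124 in NB cecum, and 137 in NB colon, which turned the order of the stages in cecum (2.16% in AD, 1.94% in NB) and in colon (2.45% and 2.85%). With JCHAIN at 2% or more NB ileum had 97, and at 5% or more NB ileum had 15, cecum 58, colon 19, and rectum 3. AD duodenum, jejunum, cecum, and colon had 491, 288, 68, and 115 at 5% or more. At 5% the share led by ENSBTAG00000047700 was 0 in NB ileum and NB colon. Removing doublets left 0 cells in NB rectum.

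For NB against AD, TMM scaling gave 675 higher and 375 lower in cecum, 395 and 374 in colon, and 89 and 93 in both, and the scale of genes with a symbol gave 647 and 562, 615 and 256, and 112 and 93. In cecum no minimum level gave 173 lower, and JCHAIN at 5% gave 69 lower. For small against large intestine at the AD stage, TMM, a pseudocount of 1 CPM, or no minimum gave 5 lower, leaving out cells with other-type markers 6 lower, symbol scaling 14 higher and 9 lower, and leaving out AD jejunum 22 and 13. At the NB stage, removing doublets gave 31 lower and leaving out NB rectum 30. Removing doublets also left out NB rectum. A gene had to be called in every pair of libraries, so leaving out a library by itself can only keep or raise these counts. The cause of the other shifts was not tested.

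Cells with LAG3 were 38.9% at 500 UMIs and 75.2% unthinned in NB ileum, and 43.6% and 81.8% in NB colon. Cells with MKI67 were 10.7% unthinned in NB ileum, 11.2% at 500 UMIs and 61.7% unthinned in NB cecum, 0 at 500 UMIs in NB colon, and 73.9% unthinned in NB rectum. Thinning by its own construction lowers such shares. A split by heavy chain UMIs was not run, since those genes have no symbol, and JCHAIN at 5% could not be compared in colon or between NB small and large intestine, with under 20 cells. Depth limits the 55 cells of NB colon and the 23 of NB rectum, where a gene at 0 UMIs can reach 11.7 and 11.3 CPM.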
